A study of Mus musculus with 38 samples.

Results

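The genes described are the translation initiation and elongation factors of mouse Th17 cells, taken as every gene symbol in the deposited count tables that starts with Eif or Eef. Symbols starting with Eif2ak, which encode kinases, and symbols marked as pseudogenes were left out. The rule gave 66 of 31053 symbols. Messenger RNA was sequenced from libraries made from 2000 sorted C57/B6 T cells each. In the 22 in vivo libraries, naive T cells with the transgenic 2D2 receptor, which recognises a myelin protein, had been driven in culture to the inflammatory Th17 state that the labels call Th17Inf. They were then moved into WT recipients and recovered when the resulting experimental autoimmune encephalomyelitis (EAE) peaked. Donors were CHD1 WT (n = 3) or CHD1 cKO (n = 4), with cells taken from the central nervous system (CNS) or the draining lymph node (dLN), or GR WT (n = 4) or GR cKO (n = 4), with cells taken from the CNS. CHD1 is a chromatin remodeller, GR is the glucocorticoid receptor encoded by Nr3c1, and the knockouts are called cKO in the study design and KO in the genotype labels, which do not name a Cre driver. In the 16 in vitro libraries, Th17Inf cells of WT or IL-23R KO origin, without a 2D2 label, spent 2 days with or without the synthetic glucocorticoid dexamethasone (Dex). Each of these 4 groups had n = 4. Throughout, n counts libraries, and the labels do not say that libraries of a group came from separate mice or cultures, so p values measure the spread between libraries, which may be technical.

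Translation begins when eIF2, bound to GTP, brings the initiator transfer RNA to the small ribosomal subunit, helped by eIF1, eIF1A and the large scaffold complex eIF3. The cap-binding protein eIF4E, the scaffold eIF4G and the RNA helicase eIF4A form eIF4F, which recruits the messenger RNA, and the 4E-binding proteins hold eIF4E back when the kinase mTOR is inactive. During elongation eEF1A delivers aminoacyl-tRNAs, eEF1B recharges it, and eEF2 moves the ribosome along. Messenger RNAs of many elongation factors and some initiation factors start with a C followed by a run of pyrimidines, known as a terminal oligopyrimidine tract, through which mTOR controls their translation.

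Those tracts are a feature of the sequence around the transcript start, so the starts of 10 members are shown beside the changes described further on. RefSeq (GRCm38.p6) promoter windows matched 50 of the 66 members. Each line gives 25 bases on either side of a RefSeq transcript start, 5′ to 3′ on the gene's strand. Capitals mark the longest run of at least 7 pyrimidines counted from a C, and T may stand directly before that C. Shorter runs in the same window were left in lower case. A run may lie anywhere in the window, before or after the start, so it need not be a terminal oligopyrimidine tract. The first 6 genes have such a run, and 5 of them fell in IL-23R KO cells given Dex, whereas the last 4 have none and rose there. They were picked as examples after the values had been seen and do not stand for the rest. Over all matched members tested there, the median log2 fold change was -0.34 in the 16 with a run and -0.35 in the 30 without one, and of those 30, 14 fell and 5 rose.
Eif3l: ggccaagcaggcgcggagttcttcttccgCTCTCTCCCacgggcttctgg
Eif3f: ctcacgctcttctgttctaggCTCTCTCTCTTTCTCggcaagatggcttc
Eif3k: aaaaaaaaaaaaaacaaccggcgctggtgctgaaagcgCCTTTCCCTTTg
Eif2s3x: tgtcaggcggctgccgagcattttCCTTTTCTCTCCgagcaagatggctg
Eef2: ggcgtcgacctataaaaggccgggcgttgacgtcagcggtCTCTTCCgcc
Eef1a1: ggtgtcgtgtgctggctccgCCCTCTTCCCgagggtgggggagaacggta
Eif4a2: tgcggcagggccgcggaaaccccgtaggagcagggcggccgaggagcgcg
Eif1b: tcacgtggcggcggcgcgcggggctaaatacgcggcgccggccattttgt
Eif1: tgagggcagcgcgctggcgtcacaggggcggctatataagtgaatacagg
Eif4ebp2: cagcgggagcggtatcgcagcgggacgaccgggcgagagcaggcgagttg
The positions are Eif3l chr15:79075198-79075247 (+), Eif3f chr7:108934390-108934439 (+), Eif3k chr7:28981864-28981913 (-), Eif2s3x chrX:94212627-94212676 (-), Eef2 chr10:81176606-81176655 (+), Eef1a1 chr9:78481700-78481749 (-), Eif4a2 chr16:23107443-23107492 (+), Eif1b chr9:120492581-120492630 (+), Eif1 chr11:100319924-100319973 (+) and Eif4ebp2 chr10:61452645-61452694 (-). Such a run lay in the window of at least 1 listed start in 19 of the 50 matched members (38%). It was found in 25.6% of 27025 genes with a window and in 27.0% of the 8224 of them that were tested in vitro. Other motifs were searched on both strands of the 300 bases that run from 250 before to 50 after the start. The E-box CACGTG was found in 13 of 50 members (26%), against 8.09% of all genes and 12.1% of those tested in vitro. The palindromic consensus of the glucocorticoid response element was in 0 of 50 members and 0.0111% of all genes, and the amino acid response motif TGATGNAAT in 0 of 50 members and 1.08% of all genes. A match describes the letters only.

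Per kilobase of exon, Eef1a1, the main carrier of aminoacyl-tRNA to the ribosome, had the highest level of all members in each of the 10 groups. Levels are counts relative to library size (CPM) after scaling of library sizes by the trimmed mean of M values (TMM), and the 14 CHD1 libraries share 1 scaling. In WT control cultures Eef1a1 was at 3345 ± 195 scaled CPM per kilobase (SD, n = 4). Eef1b2, the exchange factor that recharges eEF1A, followed at 896 ± 14.8, then Eef2, the translocase, at 715 ± 34.8, Eif5a, which carries the amino acid hypusine and relieves stalled ribosomes, at 653 ± 34.5, and Eef1g, a structural subunit of eEF1B, at 423 ± 17.2. In these 4 libraries the ranges of neighbouring genes in that order overlapped only for Eef2 and Eif5a, at 681 to 746 and 627 to 704. In KO Dex cultures Eif5a, at 843 ± 49.9, stood above Eef1b2, at 818 ± 25.2, with overlapping ranges. Eef1a1 alone made up 32.8% to 43.2% of the summed level of all members in a library. All members together took 2.93% to 3.15% of the counts outside repeat features in 12 of the in vitro libraries and 2.45% to 2.53% in the 4 KO Dex libraries, and these ranges did not overlap.

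At the other end, Eef1a2, Eif4e1b, Eif2c5, Eef1akmt3 and Eif4ebp3 passed the filter on low counts in no comparison. Eef1a2, the muscle and neuron form of eEF1A, had 5 counts over all 38 libraries, Eif2c5 6, Eif4e1b 7, Eef1akmt3 114 and Eif4ebp3 143. Eif2c5 is annotated as a long intergenic non-coding RNA and was included by its symbol only. Eif2s3y, the Y-linked copy of the eIF2 gamma subunit, had 0 counts in 15 of the 16 in vitro libraries and 3 in the other, against 91 to 452 in each in vivo library. With Eif5a2, it was therefore tested in vivo and not in vitro, and Eif5a2 and Eif3j1 were not tested in the dLN comparison. Genes tested were thus 59 of 66 in vitro and in the dLN table, and 61 in the CNS tables and the tissue comparisons.

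Total counts per library ran from 4911109 to 6262849 for CHD1 cells of the CNS and from 3148634 to 5158450 for those of the dLN. They ran from 6281769 to 9159671 for the GR libraries and from 3320586 to 4732419 for the cultures. Among the targeted genes, Nr3c1 was lower in GR cKO than in GR WT libraries, at 5.20 to 6.12 against 11.5 to 17.2 scaled CPM. Il23r was lower in the KO in vitro libraries, at 1.503 to 5.28 against 5.79 to 15.9. Chd1 did not separate the genotypes, at 2.89 to 5.32 in cKO against 4.20 to 5.08 in WT CNS libraries and 3.10 to 6.58 against 5.51 to 6.07 in dLN libraries, and a count over the whole gene does not show which exons a deletion removes. The CHD1 genotypes are therefore those of the labels alone. Summed markers of T cells were at 1422 to 7849 scaled CPM in all libraries. The 10 listed microglia and macrophage markers summed to 1510 to 6275 in the CNS libraries, with none of them at 0 over a group, against 4.22 to 64.3 in the dLN and 3.48 to 27.0 in vitro. Fewer cells of a type and less RNA per cell cannot be told apart in such bulk libraries.

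In IL-23R KO cells, most of the translation factor genes were lower after 2 days of Dex. By edgeR's quasi-likelihood test with Benjamini-Hochberg adjustment over all genes tested, 34 of 59 members fell and 8 rose at an adjusted p under 0.05. Of all 10813 genes tested, 54.7% were called, 27.4% as lower and 27.3% as higher. The median log2 fold change was -0.39 over the members and 0.01 over all genes. All 5 tested genes of eIF2 (Eif2s1, Eif2s2 and Eif2s3x) and of its alternatives as initiator-tRNA carriers (Eif2a and Eif2d) fell, together with 4 of 5 eIF2B genes, 10 of 14 eIF3 genes and 6 of 11 genes of eIF4F and its partners. Those that rose were Eif4e3, Eef2k, Eif4ebp1, Eif4ebp2, Eif4a2, Eif1b, Eif5a and Eif1. The same 4 KO Dex libraries had 0.359% to 0.447% of counts on mitochondrial genes, where the other 12 had 1.46% to 2.26%, and 30.5% to 37.5% on repeat features, against 13.5% to 25.4%. Without the repeat features the counts were again 34 lower and 8 higher. The 10 microglia and macrophage markers summed to 17.5 to 27.0 scaled CPM in these libraries, with Csf1r, C1qb, C1qc and Lyz2 at 0, where the other 12 had 3.48 to 7.70. Nr3c1, the gene of the receptor for Dex, was at 8.20 to 10.8 scaled CPM against 2.14 to 4.11. The part of these differences in the result was not tested. Without TMM scaling the median of all genes moved by -0.47, and 49 members were called lower and 4 higher. Shares of all genes called in that fit, or without the repeat features, are not given here.

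**Figure D1:**
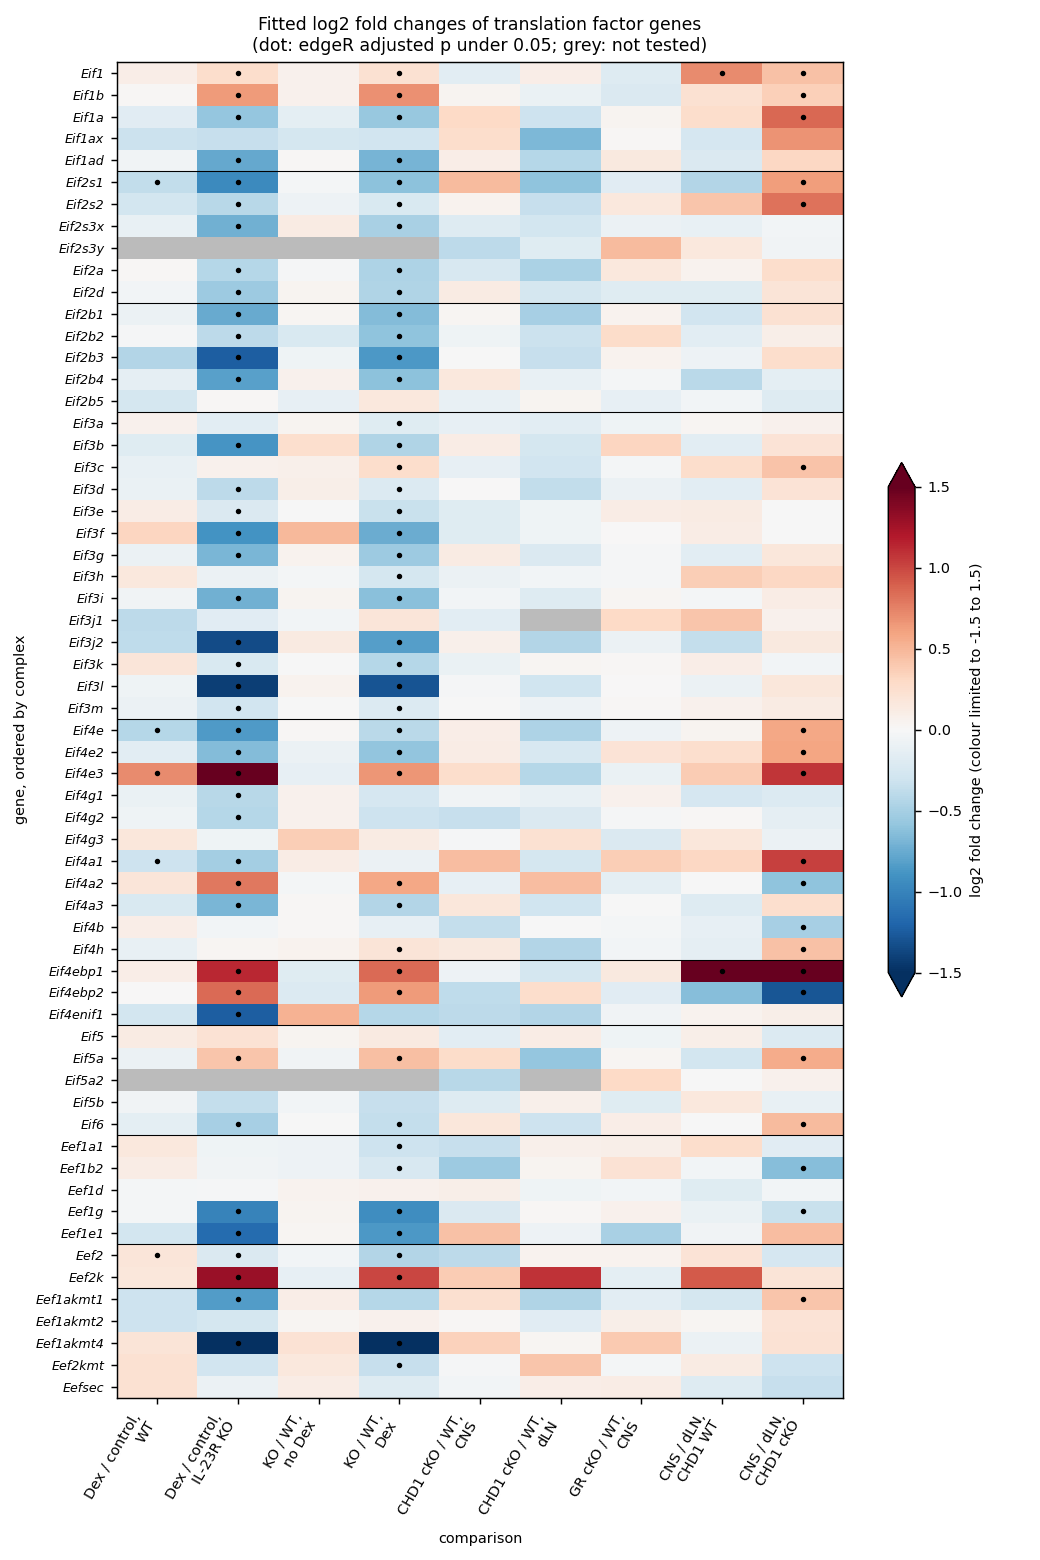
Fitted log2 fold changes (colour, limited to -1.5 to 1.5) of 61 translation factor genes (rows, grouped by complex) in 9 comparisons (columns). Dots mark an edgeR adjusted p under 0.05 and grey marks genes not tested. Most dots lie in the Dex comparison within KO cells (42 genes), the KO versus WT comparison with Dex (44) and the tissue comparison within CHD1 cKO cells (20).

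Among the eIF3 genes, which encode the scaffold of the initiation complex, Eif3l moved most. It lies on chromosome 15, 79075179 to 79094405, plus strand (GRCm38, GENCODE M21). Its level was 201, 224, 201 and 226 scaled CPM in the 4 KO controls and 81.1, 82.0, 78.1 and 80.0 in the 4 KO Dex libraries. The means were 80.3 ± 1.67 (SD, n = 4) with Dex and 213 ± 14.1 (SD, n = 4) without, with no overlap. This was a 2.66-fold fall (log2 fold change -1.41 ± 0.06 (SE), adjusted p = 6.5e-11). The WT libraries were at 202, 218, 194 and 208 without Dex and 195, 205, 195 and 192 with it, so only the KO Dex group stood apart. Eif3i and Eif3g fell by less, with log2 fold changes of -0.72 (adjusted p = 2.4e-08) and -0.68 (adjusted p = 1.2e-06). Eif3i was at 340, 356, 324 and 336 in KO controls and 217, 205, 197 and 204 with Dex, without overlap. Eif3f, a subunit with a deubiquitinase-like fold, varied between libraries of 1 group. It was at 164, 122, 86.4 and 60.03 with Dex and 208, 183, 212 and 203 without in KO cells, without overlap but with wide spread (log2 fold change -0.90 ± 0.23 (SE), adjusted p = 0.0032). Eif3b fell by 0.89 on the log2 scale (adjusted p = 4.0e-05). Eif3a, the largest subunit, was not called, at 80.3, 71.0, 74.5 and 74.9 without and 67.0, 67.3, 70.8 and 64.0 with Dex (log2 fold change -0.16 ± 0.07 (SE), adjusted p = 0.063). The ratio of Eif3a to Eif3l counts within a library, which no scaling enters, was 0.801 to 0.906 in the KO Dex libraries and 0.317 to 0.417 in the other 12. Eif3j2 also fell, by 1.34, while Eif3j1 was not called at -0.17 (adjusted p = 0.65). These 2 genes share near-identical sequence, over at least 300 bases at 97% or more identity, so their reads could have been split between them.

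eIF2 and its exchange factor eIF2B bring the initiator transfer RNA to the ribosome and recharge eIF2 with GTP. Eif2s1, which encodes the alpha subunit that stress kinases phosphorylate, was at 165, 179, 193 and 191 scaled CPM in KO controls and 91.1, 84.4, 97.4 and 101 in KO Dex libraries. The groups did not overlap, and the fall was 1.94-fold (log2 fold change -0.96 ± 0.11 (SE), adjusted p = 2.2e-06). Eif2s3x, the X-linked gamma subunit, went from 122, 142, 126 and 143 to 87.2, 78.6, 79.3 and 77.8, again without overlap (log2 fold change -0.72 ± 0.08 (SE), adjusted p = 7.8e-07). The beta subunit Eif2s2 and the alternative initiator-tRNA carriers Eif2a and Eif2d fell by 0.42, 0.42 and 0.54 on the log2 scale. Of the eIF2B genes, Eif2b3, encoding the gamma subunit, changed most, from 23.8, 29.5, 17.7 and 28.8 to 12.3, 11.6, 8.21 and 10.6 (log2 fold change -1.24 ± 0.18 (SE), adjusted p = 1.7e-05). Eif2b5, the catalytic epsilon subunit, was the exception, with a fitted 0.01 (adjusted p = 0.95).

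Genes of the cap-binding complex moved in opposite directions within families. Eif4e, encoding the main cap-binding protein, was at 179, 248, 197 and 216 scaled CPM in KO controls and 119, 110, 116 and 121 with Dex. It fell 1.81-fold (log2 fold change -0.85 ± 0.09 (SE), adjusted p = 4.4e-07), and the groups did not overlap. Eif4e3, a family member with an unusual way of binding the cap, rose 2.81-fold, from 19.4, 12.9, 20.6 and 15.2 to 42.4, 46.5, 52.7 and 47.8 (log2 fold change 1.49 ± 0.14 (SE), adjusted p = 1.4e-07). Eif4e2, which encodes the cap-binding protein 4EHP, fell by 0.65 on the log2 scale (adjusted p = 8.5e-07). Of the helicase genes, Eif4a1 fell (log2 fold change -0.52 ± 0.07 (SE), adjusted p = 1.4e-05) and its close paralogue Eif4a2 rose (log2 fold change 0.79 ± 0.09 (SE), adjusted p = 1.3e-06). Eif4a1 was at 432, 479, 363 and 448 without and 288, 303, 296 and 318 with Dex, and Eif4a2 at 246, 201, 278 and 240 and 406, 426, 434 and 402, with no overlap for either. Eif4a1 has near-identical sequence in 3 other annotated genes and Eif4a2 in 1, none of which has a row in the tables. Eif4a3, a core protein of the exon junction complex, fell by 0.69 (adjusted p = 8.0e-06). The scaffold Eif4g1 fell by 0.42 (adjusted p = 0.011) with overlapping libraries, at 38.7, 49.9, 34.8 and 38.7 without and 36.1, 30.8, 25.5 and 29.2 with Dex. The helicase cofactors Eif4b and Eif4h were not called, at -0.04 (adjusted p = 0.58) and 0.03 (adjusted p = 0.67).

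Both tested 4E-BP genes, whose proteins inhibit eIF4E, rose in the same cells. Eif4ebp1, on chromosome 8, 27260329 to 27276674, plus strand, encodes 4E-BP1, which mTOR phosphorylates. It was at 244, 172, 226 and 191 scaled CPM in KO controls and 471, 451, 432 and 468 in KO Dex libraries. Every KO Dex library lay above every other in vitro library, and the rise was 2.19-fold (log2 fold change 1.13 ± 0.10 (SE), adjusted p = 5.7e-08). Its weaker paralogue Eif4ebp2 went from 7.0, 10.4, 8.04 and 8.72 to 17.1, 12.0, 14.2 and 18.6 (log2 fold change 0.85 ± 0.20 (SE), adjusted p = 0.0016). Eif4enif1, which encodes the eIF4E transporter 4E-T, fell from 28.2, 39.5, 52.0 and 39.0 to 15.9, 18.8, 10.2 and 22.3 (log2 fold change -1.23 ± 0.21 (SE), adjusted p = 1.1e-04). The ratio of Eif4ebp1 to Eif4e counts in a library was 3.73 to 4.11 in the KO Dex group, 0.694 to 1.36 in KO controls, 1.41 to 1.76 in WT Dex and 1.02 to 1.26 in WT controls. The ratio of Eif4e to Eif4e3 was 2.20 to 2.80, 9.24 to 19.2, 4.38 to 6.37 and 9.85 to 13.3 in the same order of groups, and that of Eif4a1 to Eif4a2 was 0.683 to 0.791, 1.304 to 2.39, 1.03 to 1.23 and 1.38 to 1.83. In all 3 pairs both Dex groups lay to the same side of both control groups, and the KO Dex group lay beyond WT Dex. The ratio of Eef1b2 to Eef1g did the same. That of Eef2 to Eef2k did not, at 234 to 382 in WT Dex and 190 to 398 in WT controls. Nor did that of Eif3a to Eif3l, at 0.366 to 0.417 and 0.337 to 0.381 in those groups. The pairs were chosen after their values had been seen and the ratios are given without a test.

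**Figure D2:**
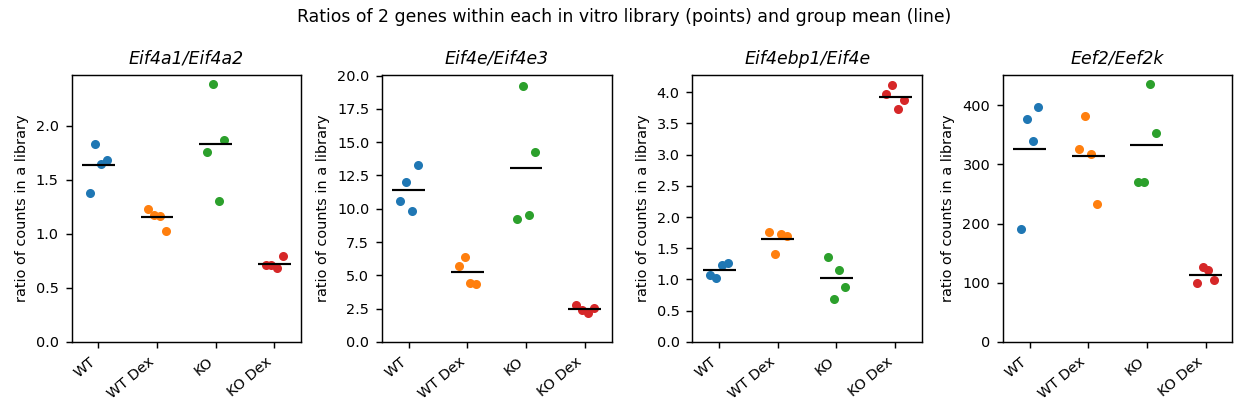
Ratio of the counts of 2 genes within each in vitro library (points, 4 per group) and the group mean (line), for 4 gene pairs. The 4 KO Dex libraries lie apart from the other 12 in each panel, at 0.683 to 0.791 for Eif4a1 to Eif4a2 and 3.73 to 4.11 for Eif4ebp1 to Eif4e.

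Among the start-site and subunit-joining factors, Eif1 and Eif1b, 2 related genes for the start codon gatekeeper eIF1, rose in KO cells, while Eif1a, for the eIF1A protein, fell. Eif1b was at 67.2, 51.3, 58.1 and 53.3 scaled CPM without and 77.8, 83.7, 97.4 and 96.95 with Dex, without overlap (log2 fold change 0.63 ± 0.11 (SE), adjusted p = 8.9e-05). In 1 of 24 alternative settings Eif1b was not called, and its lowest fitted value over them was 0.18. Eif1 was at 849, 636, 786 and 709 and 898, 829, 937 and 907, with overlap (log2 fold change 0.26 ± 0.07 (SE), adjusted p = 0.0053), and without TMM scaling its direction flipped to -0.20. Near-identical Eif1 sequence lies in 6 other annotated genes, 1 of which has a row in the tables. Eif5a rose from 1377, 1718, 1399 and 1515 to 2002, 1916, 1926 and 2173, without overlap (log2 fold change 0.42 ± 0.07 (SE), adjusted p = 6.3e-05), but flipped to -0.05 without TMM scaling. Eif5, the GTPase-activating partner of eIF2, was at 0.22 (adjusted p = 0.12) and flipped to -0.24 without TMM scaling. Eif6, which keeps the large ribosomal subunit free until it is needed, fell by 0.49 on the log2 scale (adjusted p = 9.5e-04).

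In the elongation machinery the exchange complex was uneven. Eef1g was at 1100, 1178, 1136 and 1105 scaled CPM in KO controls and 577, 555, 558 and 573 with Dex, and it fell 2.00-fold (log2 fold change -0.998 ± 0.05 (SE), adjusted p = 1.7e-10). Its WT libraries, at 1058, 1104, 1080 and 1162 without and 1036, 1038, 1128 and 1103 with Dex, all lay above the KO Dex libraries. Eef1b2 was not called, at 2185, 2081, 2265 and 2083 and 2137, 2045, 1996 and 2111 (log2 fold change -0.06 ± 0.05 (SE), adjusted p = 0.38), nor was Eef1d, the third subunit of the complex, at -0.02 (adjusted p = 0.84). The ratio of Eef1b2 to Eef1g counts in a library was 3.58 to 3.70 in KO Dex and 1.77 to 2.31 in the other 12 libraries. Eef1a1 was at 8222, 7126, 8769 and 7432 and 7726, 7155, 7406 and 7806, with overlapping groups (log2 fold change -0.07 ± 0.06 (SE), adjusted p = 0.39). Near-identical sequence of Eef1a1 lies in 7 and of Eef1g in 3 other annotated genes, none with a row in the tables. Eef1e1, which scaffolds the synthetase complex rather than the elongation step, fell by 1.16 (adjusted p = 6.3e-05). Eef2 fell from 2334, 2223, 2448 and 2272 to 1941, 2001, 1925 and 2096 (log2 fold change -0.22 ± 0.05 (SE), adjusted p = 0.0023), whereas Eef2k, the kinase that inactivates eEF2, rose from 8.63, 8.22, 5.63 and 6.44 to 19.5, 15.7, 15.9 and 20.2 (log2 fold change 1.296 ± 0.22 (SE), adjusted p = 1.0e-04). Eef1akmt4, named as a lysine methyltransferase of eEF1A, had the lowest log2 fold change of the 59 genes, from 17.0, 18.6, 17.4 and 19.0 to 6.01, 4.44, 7.08 and 5.05 (log2 fold change -1.66 ± 0.19 (SE), adjusted p = 1.7e-06). It overlaps 1 other annotated gene, Gm49333, which had no counts.

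**Figure D3:**
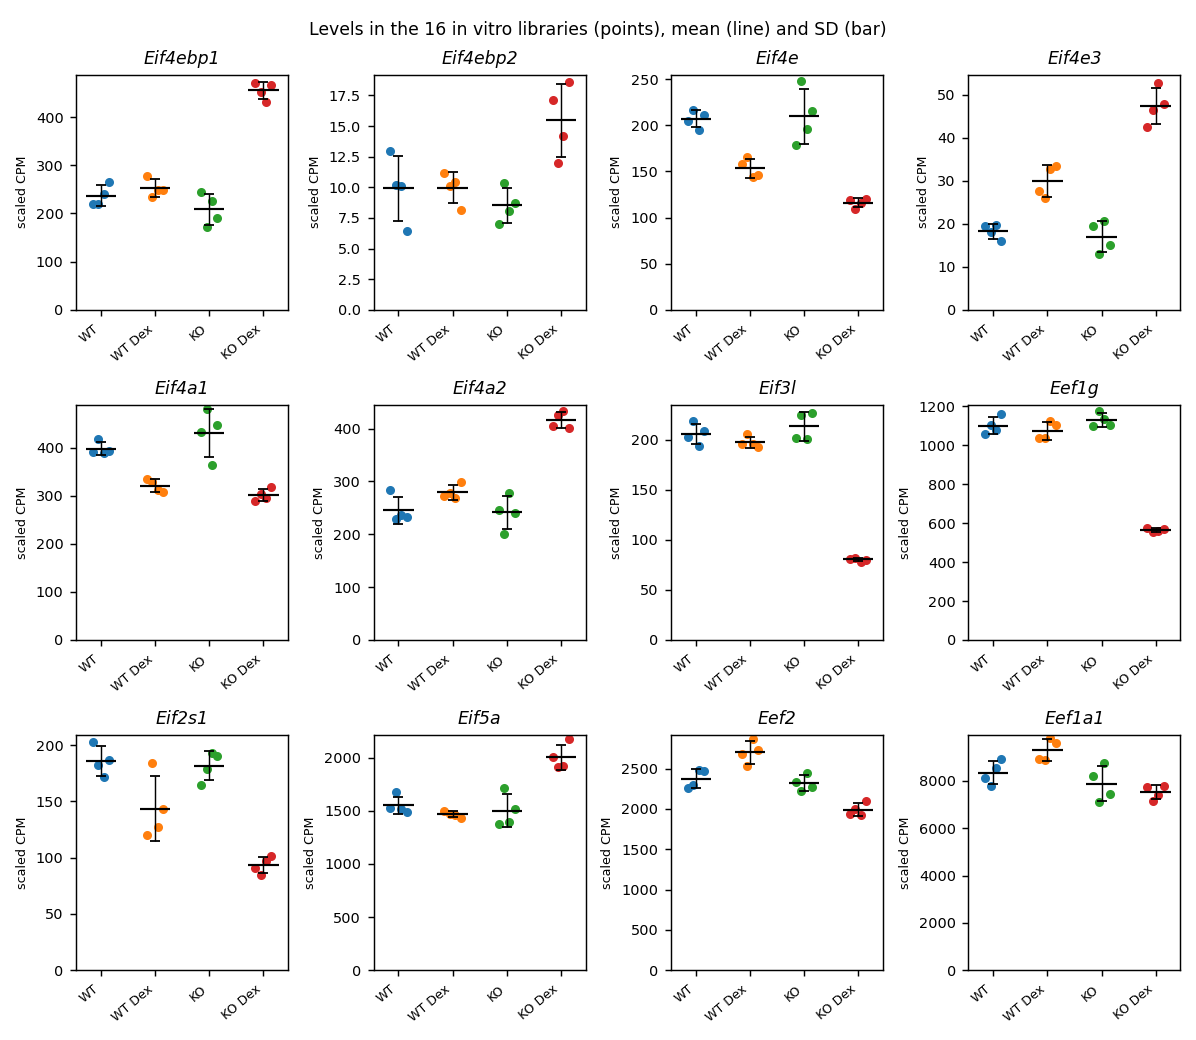
TMM-scaled CPM (vertical axes, from 0) of 12 genes in the 16 in vitro libraries (points, 4 per group), with the group mean (line) and SD (bar). The KO Dex points of Eif3l (78.1 to 82.0) and Eef1g (555 to 577) lie below all others, and those of Eif4ebp1 (432 to 471) and Eif4e3 (42.4 to 52.7) above all others.

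The pyrimidine runs shown at the start were then set beside these changes for all matched members. Of the 16 tested members with a run in a start window, 11 fell in KO cells and 1, Eef2k, rose. The run of Eef2k lay in the window of 1 of its 3 listed starts. Of the 30 members without a run, 14 fell and 5 rose. The median log2 fold change was -0.34 with and -0.35 without a run. With the E-box CACGTG, 7 of 12 fell and 3 rose with a median of -0.23, against 18 and 3 of 34 with a median of -0.37 without it. These differences were not tested.

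In WT cells the same treatment changed few members: 2 rose and 3 fell of 59, with 8.08% of all 10813 genes called (3.88% higher, 4.2% lower), so the members' share of 8.47% was near that of all genes. The medians were -0.06 over members and 0.01 over all genes. Eif4e3 rose 1.63-fold, from 19.4, 18.0, 19.8 and 15.9 to 27.6, 26.0, 32.6 and 33.5 scaled CPM (log2 fold change 0.71 ± 0.14 (SE), adjusted p = 0.0036). Eif4e fell 1.35-fold, from 205, 216, 195 and 211 to 158, 166, 144 and 146 (log2 fold change -0.43 ± 0.09 (SE), adjusted p = 0.0044). Neither pair of groups overlapped, and both genes moved as they did in KO cells. Eif4a1 fell from 391, 418, 389 and 393 to 336, 327, 312 and 309, also without overlap (log2 fold change -0.31 ± 0.07 (SE), adjusted p = 0.013). Eif2s1 fell from 203, 182, 171 and 187 to 120, 184, 127 and 144, with WT Dex replicate 2 among the controls (log2 fold change -0.37 ± 0.11 (SE), adjusted p = 0.046). Eef2 rose from 2265, 2292, 2481 and 2474 to 2678, 2530, 2871 and 2728 (log2 fold change 0.18 ± 0.05 (SE), adjusted p = 0.044), the opposite of its fall in KO cells. Of these 5, 4 were called the same way in KO cells. With each of the 16 libraries left out in turn, Eif4e3 and Eif4e were called in 16 of 16 fits, Eif4a1 in 15, Eef2 in 5 and Eif2s1 in 3. The count fell to 2 without WT control replicate 2, and to 3 in 8 fits, without WT control 1 or 4, KO control 5 or 8, WT Dex 1, 3 or 4, or KO Dex 7. DESeq2 size factors in edgeR gave 1 higher and 4 lower, and no TMM scaling 1 higher and 5 lower. Shares of all genes called in these other fits are not given here.

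The members that did not pass the test in WT cells included several that moved most in KO cells. Eif4ebp1 was at 220, 220, 241 and 266 in WT controls and 278, 234, 249 and 249 with Dex (log2 fold change 0.09 ± 0.10 (SE), adjusted p = 0.63), with overlapping groups. Eif2b3 had the lowest fitted value of the 59 genes in WT cells, at -0.44, with an adjusted p of 0.10. Fitted values were -0.06 for Eif3l, -0.03 for Eef1g, -0.08 for Eif5a, 0.17 for Eef2k and 0.16 for Eef1a1. 

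The difference between the 2 responses was tested as the genotype by Dex interaction in 1 fit of the 16 libraries. It was called for 33 of 59 members, 26 in the negative and 7 in the positive direction (KO minus WT), while 32.2% of all genes were called (17.2% and 15%). The medians were -0.33 over members and -0.01 over all genes. The interaction was -1.35 ± 0.09 (SE) for Eif3l (adjusted p = 3.3e-08) and -0.97 ± 0.07 for Eef1g (adjusted p = 6.6e-08). For Eif4ebp1 it was 1.04 ± 0.14 (adjusted p = 2.9e-05), for Eef2k 1.12 ± 0.32 (adjusted p = 0.012) and for Eif4a2 0.60 ± 0.13 (adjusted p = 0.0015). Eif4e and Eif4e3, which changed in both genotypes, changed by more in KO cells, with interactions of -0.42 ± 0.12 (adjusted p = 0.014) and 0.78 ± 0.19 (adjusted p = 0.0055). For Eif4a1 the interaction of -0.21 ± 0.10 was not called (adjusted p = 0.13). Of the eIF3 genes 10 of 14 were called, all in the negative direction. Of the eIF2 subunit genes Eif2s1 and Eif2s3x were called, also in the negative direction, and Eif2s2 was not, at -0.15 (adjusted p = 0.36). Without TMM scaling the split was 41 lower and 1 higher, with the median of all genes moved by -0.35. The share of all genes called in that fit is not given here. Over the alternative settings, the interaction of Eef2k was not called in 1 of 22. Those of Eif4a2, Eif4e3 and Eif1b were each not called in 1 of 23.

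**Figure D4:**
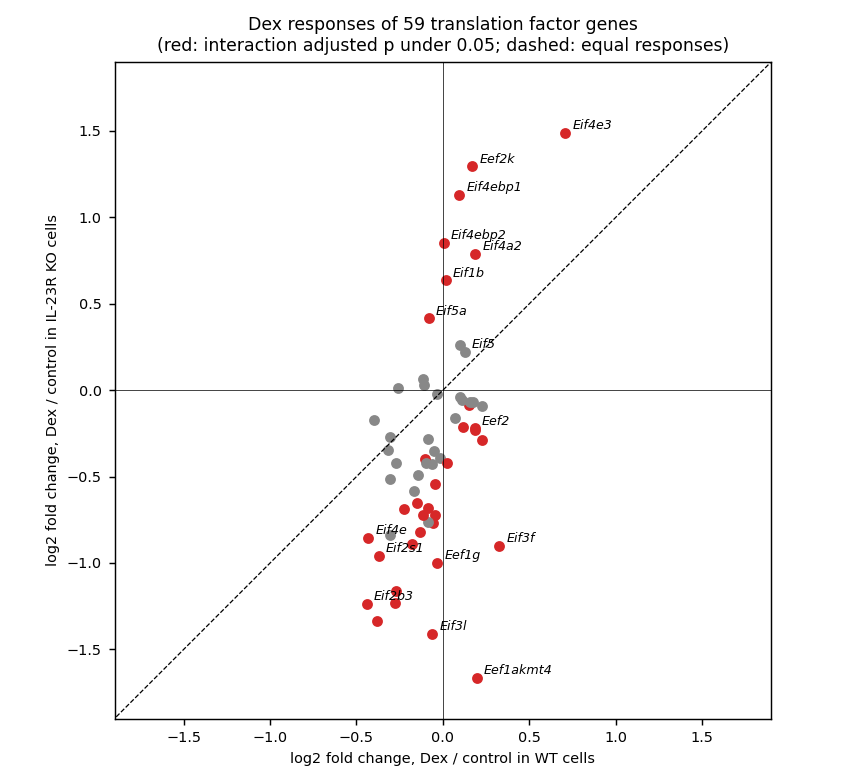
Log2 fold change with Dex in WT cells (horizontal) against that in IL-23R KO cells (vertical) for the 59 tested genes, with the line of equal responses dashed. Red points are the 33 genes with an interaction adjusted p under 0.05, and most of them lie below the line, with Eif3l at -0.06 and -1.41.

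Without Dex, of 59 members 0 were called between IL-23R KO and WT controls by edgeR, with 0.684% of all genes called. At an unadjusted p under 0.05 there were 2 members, Eif4enif1 and Eif3f, and 9.72% of all genes, and DESeq2 called 0. Over the 59 members the fitted values ran from -0.26 for Eif1ax to 0.53 for Eif4enif1, and the median 95% confidence interval of a member reached 0.22 on the log2 scale to either side. With Dex, 34 members were lower and 10 higher in KO than in WT cells, against 45.9% of all genes called (23.7% lower, 22.2% higher), with medians of -0.34 over members and -0.00 over all genes. Beyond the genes already described, Eef1a1 was called lower in the KO Dex libraries, at 7726, 7155, 7406 and 7806 against 8931, 8873, 9811 and 9621 (log2 fold change -0.31 ± 0.06 (SE), adjusted p = 9.8e-04). Eef1b2 was called lower too (log2 fold change -0.24 ± 0.05 (SE), adjusted p = 0.0011), as was Eef2 (log2 fold change -0.44 ± 0.05 (SE), adjusted p = 5.2e-06). Per kilobase, Eef1a1, Eef1b2 and Eef2 were the 3 highest members in WT controls. By mean, each of them was highest in the WT Dex group and lowest in the KO Dex group. Eif4a1 was not called, at -0.09 (adjusted p = 0.33). Both genotype comparisons share their libraries with the Dex comparisons and are not independent of them. Without TMM scaling the split of members with Dex was 44 lower and 5 higher, and the share of all genes called in that fit is not given here.

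Lists of other translation genes were counted in KO cells given Dex, where 27.4% of all genes were called lower and 27.3% higher, with a median of 0.01. Of 22 tested cytosolic aminoacyl-tRNA synthetase genes, 18 fell and 2 rose, with a median of -0.95. Lars fell from 32.1 ± 2.95 to 9.65 ± 1.10 scaled CPM (SD, n = 4 in each group), a log2 fold change of -1.74. Hars changed by -1.57 and Farsb by -1.37, while Aimp2, a synthetase scaffold, rose by 0.56. Of 8 termination and recycling genes, 8 fell with a median of -0.59, including the release factor Etf1 at -1.52 and the recycling ATPase Abce1 at -0.88. Of 13 genes for hypusine, polyamine and diphthamide synthesis, which modify eIF5A and eEF2 or feed those reactions, 9 fell and 0 rose. Srm, spermidine synthase, fell from 59.4 ± 18.4 to 6.44 ± 1.41, a log2 fold change of -3.20. In the remaining lists the share called lower was near that of all genes. Of 10 mitochondrial translation factors, 3 fell, with a median of -0.03, namely Tsfm at -1.42, Gfm1 at -1.33 and Tufm at -0.78. Of 16 integrated stress response genes 5 were higher and 5 lower. Ppp1r15a, which directs a phosphatase to eIF2 alpha, rose from 16.6 ± 3.28 to 69.1 ± 5.43 (2.06), and Asns, asparagine synthetase, fell from 92.6 ± 6.69 to 21.5 ± 2.27 (-2.10). Among 24 genes of mTOR and cap-binding control 6 rose and 6 fell. Pdcd4, an inhibitor of eIF4A, had the largest rise, from 16.3 ± 4.43 to 94.0 ± 6.72, a log2 fold change of 2.54. In WT cells Pdcd4 rose as well, from 21.8 ± 2.23 to 34.2 ± 2.96 (0.65), and 5 of 22 synthetase genes fell with a median of -0.25, where 4.2% of all genes were lower. All these values were called by edgeR at an adjusted p under 0.05.

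In vivo, the clearest difference among members lay between tissues. Eif4ebp1 was higher in CNS than in dLN cells in both CHD1 genotypes. In WT cells it was at 74.7, 103 and 126 scaled CPM in the CNS and 22.9, 19.8 and 30.3 in the dLN, a 4.14-fold difference (log2 fold change 2.05 ± 0.28 (SE), adjusted p = 1.4e-04). In cKO cells it was at 84.8, 107, 95.5 and 98.4 and 27.6, 10.8, 16.6 and 26.4, a 4.72-fold difference (log2 fold change 2.24 ± 0.25 (SE), adjusted p = 6.8e-06). No CNS library overlapped a dLN library, and the difference did not depend detectably on genotype (interaction 0.19 ± 0.37, adjusted p = 0.84). Eif1 was the other member called in WT cells, at 797, 679 and 687 in the CNS and 387, 439 and 495 in the dLN (log2 fold change 0.71 ± 0.14 (SE), adjusted p = 0.0033), and it was called in cKO cells too (log2 fold change 0.44 ± 0.12 (SE), adjusted p = 0.0091). These 2 were the only ones of 61 called in WT cells, by edgeR with all libraries, against 16.7% of all 11589 genes (11.8% higher, 4.93% lower). Without WT dLN replicate 2 the count was 5, adding Eef2k, Eif2s2 and Eif4a1, and without TMM scaling, which moved the median of all genes by 0.38, it was 10. The 16.7% of all genes is from all libraries with TMM scaling, and shares in these other fits are not given here. The CNS and dLN libraries came as separate tables, so tissue and table cannot be told apart. The macrophage markers summed to 2049 to 4278 scaled CPM in the CHD1 CNS libraries and 4.22 to 64.3 in the dLN libraries. The 5 B cell markers summed to 36.0 to 55.3 in WT CNS and 101 to 195 in WT dLN libraries. The part of these markers in the differences was not tested.

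In CHD1 cKO cells 15 members were higher and 5 lower in the CNS, against 47.3% of all genes called (24.6% higher, 22.7% lower), with medians of 0.17 over members and -0.02 over all genes. The members' share called higher, 24.6%, was that of all genes, and their share called lower was 8.2%. Besides the macrophage markers, the 2 CD8 T cell markers differed between these groups, at 18.5 to 29.1 scaled CPM in the CNS and 130 to 605 in the dLN, as did the B cell markers, at 66.7 to 91.8 and 157 to 328, and their part was not tested. Without TMM scaling, which moved the median of all genes by 0.62, the split was 44 higher and 1 lower. The share of all genes called in that fit is not given here. Eif4a1 was at 284, 310, 337 and 349 scaled CPM in the CNS and 156, 172, 155 and 144 in the dLN (log2 fold change 1.03 ± 0.14 (SE), adjusted p = 5.3e-05), while Eif4a2 was at 153, 196, 130 and 116 and 236, 246, 220 and 199 (log2 fold change -0.60 ± 0.15 (SE), adjusted p = 0.0041). Neither pair of groups overlapped, and Eif4a2 flipped to 0.02 without TMM scaling. The ratio of Eif4a1 to Eif4a2 counts was 1.58 to 3.02 in the CNS and 0.662 to 0.723 in the dLN of cKO cells. Eif4e3, Eif2s2, Eif1a, Eif2s1, Eif4e2, Eif4e, Eif5a and Eif6 were higher in the CNS, with log2 fold changes of 1.07, 0.81, 0.86, 0.63, 0.59, 0.58, 0.56 and 0.47. Eif4ebp2 was lower, at 15.99, 15.5, 6.51 and 12.9 against 31.7, 32.3, 32.1 and 28.1 (log2 fold change -1.29 ± 0.21 (SE), adjusted p = 2.2e-04). Eef1b2 was lower (log2 fold change -0.64 ± 0.11 (SE), adjusted p = 2.5e-04), as were Eif4b (-0.49 (adjusted p = 0.0025)) and Eef1g (-0.34 (adjusted p = 0.037)), the last 2 of which flipped to 0.13 and 0.29 without TMM scaling.

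**Figure D5:**
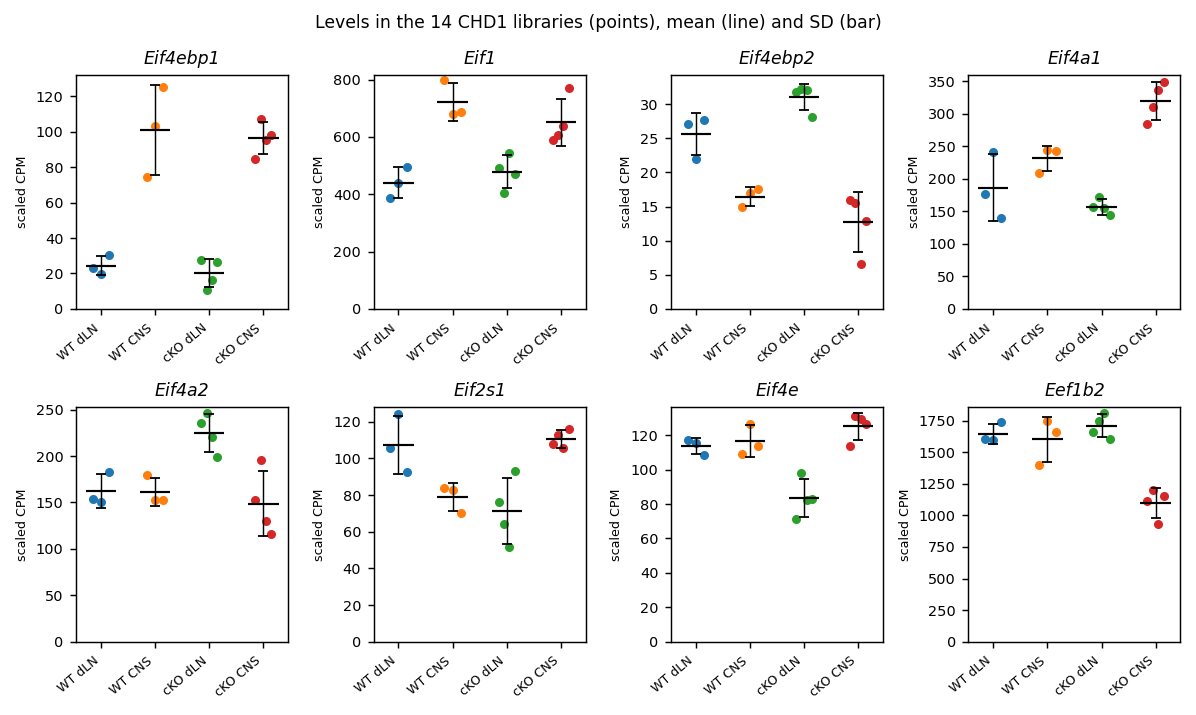
TMM-scaled CPM (vertical axes, from 0) of 8 genes in the 14 CHD1 libraries (points), with the group mean (line) and SD (bar), for WT and cKO cells from dLN and CNS. Eif4ebp1 lies at 74.7 to 126 in all CNS libraries and at 10.8 to 30.3 in all dLN libraries.

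Whether tissue and CHD1 genotype acted together was tested in the same fit of 14 libraries. By edgeR 0 of 61 members were called, with 0.112% of all genes called. At an unadjusted p under 0.05 there were 15 members and 18.9% of all genes, and DESeq2 called 8. Eif2s1 had the smallest adjusted p, with an interaction of 1.08 ± 0.24 (0.070), and it was called without any filter on low counts, with a filter at a mean of 10 CPM or without TMM scaling. It was at 83.8, 82.7 and 70.4 in WT and 108, 113, 105 and 116 in cKO CNS libraries, and at 105, 124 and 92.7 in WT and 76.0, 64.3, 51.5 and 93.3 in cKO dLN libraries. Without cKO dLN replicate 4 the count was 4, namely Eif2s1, Eif4h, Eif5a and Eef1b2. The 0.112% of all genes is from edgeR with all libraries. Shares of all genes under DESeq2 or without that replicate are not given here. The CD8 T cell markers were at 130 to 605 scaled CPM in the cKO dLN libraries and 14.6 to 29.1 in the other CHD1 libraries, and their part in the interaction was not tested. The median 95% confidence interval of a member's interaction reached 0.48 to either side.

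Within the CNS, CHD1 cKO against WT gave 0 of 61 members called by edgeR and 0.00896% of all genes. At an unadjusted p under 0.05 there were 7 members and 11.9% of all genes, and DESeq2 called 3, with Eif2s1 and Eif4a1 higher and Eef1b2 lower in cKO cells. The share of all genes called by DESeq2 is not given here. Eif2s1 was fitted at 0.48 (adjusted p = 0.24) and Eif4a1 at 0.46 (adjusted p = 0.25) by edgeR. Eef1b2 was at 1402, 1747 and 1661 scaled CPM in WT and 1111, 1204, 934 and 1150 in cKO libraries (log2 fold change -0.55 ± 0.14 (SE), adjusted p = 0.24), without overlap. In the same direction, Eef1a1 was at 6029, 6752 and 6762 and 5285, 4665, 5272 and 5335 (log2 fold change -0.35 ± 0.12 (SE), adjusted p = 0.32) and Eef2 at 1487, 1916 and 1819 and 1345, 1296, 1267 and 1407 (log2 fold change -0.39 ± 0.13 (SE), adjusted p = 0.29), neither called. The fitted values of the 61 members ran from -0.55 for Eef1b2 to 0.48 for Eif2s1. Macrophage markers summed to 2217 to 4278 in these cKO libraries and 2049 to 2560 in WT libraries. The median 95% confidence interval of a member reached 0.37 to either side.

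In the dLN, CHD1 cKO against WT also gave 0 of 59 members called by edgeR, with 0.0714% of all genes called. At an unadjusted p under 0.05 there were 13 members and 20.1% of all genes, and DESeq2 called 2, Eif4a2 higher and Eif5a lower. The median was -0.19 over members and 0.02 over all genes, and 43 of 59 fitted values were negative. Eif4a2 was at 154, 150 and 183 in WT and 236, 246, 220 and 199 in cKO libraries, without overlap (log2 fold change 0.46 ± 0.12 (SE), adjusted p = 0.10). Eif4e was at 117, 115 and 108 and 71.0, 97.8, 82.2 and 83.0 (log2 fold change -0.46 ± 0.13 (SE), adjusted p = 0.11), and Eif5a at 807, 1027 and 713 and 521, 493, 578 and 715 (log2 fold change -0.57 ± 0.17 (SE), adjusted p = 0.12). The fitted values of the 59 members ran from -0.68 for Eif1ax to 1.09 for Eef2k. Leaving out cKO replicate 4 gave 7 called members, with Eif4a2 and Eef2kmt higher and Eif2a, Eif2b3, Eif2s1, Eif4h and Eif5a lower. The 0.0714% of all genes is from edgeR with all libraries. Shares of all genes under DESeq2 or without replicate 4 are not given here. The 2 CD8 T cell markers summed to 130 to 605 scaled CPM in the cKO dLN libraries, lowest in replicate 4, against 14.6 to 23.5 in WT, and their part was not tested.

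In CNS cells labelled GR cKO, against GR WT, 0 of 61 members were called by edgeR, and 0% of all genes. At an unadjusted p under 0.05 there were 4 members, Eif2s3y, Eef1b2, Eef1akmt4 and Eif1, and 11% of all genes, and DESeq2 called 1, Eif2s3y, at 0.47 (adjusted p = 0.24) by edgeR. The share of all genes called by DESeq2 is not given here. Over the 61 members the fitted values ran from -0.49 for Eef1e1 to 0.47 for Eif2s3y. Eif1 was at 732, 612, 663 and 660 scaled CPM in GR WT and 544, 608, 608 and 570 in GR cKO libraries (log2 fold change -0.20 ± 0.09 (SE), adjusted p = 0.45), and Eif4a1 at 133, 136, 151 and 195 and 224.7, 193, 143 and 235 (log2 fold change 0.37 ± 0.18 (SE), adjusted p = 0.48), with overlap for Eif4a1 only. Eif4ebp1 was at 48.1, 59.1, 58.7 and 69.3 and 74.2, 78.0, 42.7 and 65.3 (log2 fold change 0.15 ± 0.19 (SE), adjusted p = 0.82). The median 95% confidence interval of a member reached 0.29 to either side.

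Between tissues, genes of the integrated stress response, the pathway that acts through eIF2 alpha, were higher in the CNS, in 10 of 17 tested genes in WT cells (median 1.43) and in 10 of 17 in cKO cells, where 1 was lower (median 0.98). Of all genes 11.8% were higher in WT and 24.6% in cKO cells. Of the 19 listed stress response genes, 18 passed the count filter in the CHD1 CNS libraries alone and 11 in the dLN libraries alone. Genes could thus enter the 17 only because they were high in the CNS, which by itself raises these counts and medians. The macrophage markers, at 2049 to 4278 scaled CPM in the CNS and 4.22 to 64.3 in the dLN, moved with tissue beside these lists, as did the CD8 T cell and B cell markers in cKO cells, and their part was not tested. Ppp1r15a was at 92.4 ± 9.72 scaled CPM in WT CNS libraries (SD, n = 3) and 5.77 ± 0.51 in WT dLN libraries (SD, n = 3), a log2 fold change of 3.99, and Atf3 had 4.30. Against the same shares, of 22 synthetase genes 5 were higher in WT and 12 in cKO cells, and 0 were lower in either. Cars had 1.06 in WT and 1.18 in cKO cells. Of 13 genes for hypusine, polyamine and diphthamide synthesis, 2 were higher and 1 lower in WT cells (median -0.27). In cKO cells 2 were higher and 3 lower (median -0.07). Of all genes 4.93% were lower in WT and 22.7% in cKO cells. From this list, Odc1, the first enzyme of polyamine synthesis, had 0.83 and 1.88.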

How the data were processed

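The deposited values are RSEM (version 1.3.3) expected counts per gene, made by the authors with mm10, per the submitters' processing notes. They stand in the tables as whole numbers, and the aligner, annotation release and rounding step are not given in the sources used here. The 4 tables were tested separately, except that the 14 CHD1 libraries were joined for the tissue comparisons. In R 4.3.3, edgeR 4.0.16 removed low genes (filterByExpr, minimum count 10, total 15), scaled libraries by TMM and fitted the quasi-likelihood model. All 16 in vitro libraries shared 1 fit. The threshold was a Benjamini-Hochberg adjusted p of 0.05 over all genes tested. DESeq2 1.42.0, other filters and scalings, a replicate block and leaving out each library were alternatives. Removing repeat features and dropping TMM scaling were chosen after seeing the data. The members and lists were chosen with earlier results of these data known. By a written rule, any member could be named, 16 were followed in every comparison, and up to 3 called genes per direction were named from each other list by size of change, at 10 CPM or more. Symbols matched GENCODE M21 for 66 of 66 members. Counts hold no molecular identifiers. Among 54 pairs of libraries within groups none looked like a duplicate (lowest chi-square per degree of freedom 3.74). The fits were also run on simulated counts in which a small set of genes changed, in equal numbers up and down. This setting does not check the scaling where as many genes change as in KO cells given Dex.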

Additional observations from a re-analysis of the deposited data

Results flagged for a closer look

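In 10 of the 128 group and gene combinations examined, 1 library stood further from the other 3 than Dixon's critical value for 4 samples allows. Chance gives about 1 in 20 such groups. Eif4ebp2 was at 28.1 scaled CPM in cKO dLN replicate 4, against 31.7 to 32.3. Eif4e was at 118 and Eif5a at 679 in GR WT replicate 4, against 92.3 to 95.4 and 492 to 517. Eif4a1 was at 418 in WT control replicate 2, against 389 to 393. Eif4a2 was at 209 in GR cKO replicate 7, against 175 to 179, and at 284 in WT control replicate 1, against 228 to 236. Eif3l was at 102.6 in cKO dLN replicate 2, against 122 to 123. Eef1a1 was at 4665 in cKO CNS replicate 2, against 5272 to 5335. Eif1 was at 743 in WT Dex replicate 4, against 769 to 770. Eif2s3x was at 87.2 in KO Dex replicate 5, against 77.8 to 79.3.

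By edgeR's interaction term at an adjusted p under 0.05, 32.2% of all genes were called (17.2% negative, 15% positive). The response to Dex differed by that test between IL-23R KO and WT cells for 33 of the 59 members tested. The difference on the log2 scale, KO minus WT, was negative for 26, namely Eef1akmt4 (-1.86), Eif3l (-1.35), Eif3f (-1.23), Eef1g (-0.97), Eif4enif1 (-0.95), Eif3j2 (-0.95), Eef1e1 (-0.89), Eif2b3 (-0.80), Eif1ad (-0.71), Eif3b (-0.71), Eif2b4 (-0.69), Eif3i (-0.67), Eif2s3x (-0.61), Eif3g (-0.60), Eif2s1 (-0.59), Eef2kmt (-0.51), Eif4e2 (-0.50), Eif2d (-0.50), Eif4a3 (-0.46), Eif2a (-0.45), Eif4e (-0.42), Eif3k (-0.42), Eef2 (-0.40), Eif3e (-0.33), Eif3d (-0.30) and Eif3h (-0.24). It was positive for 7, namely Eif5a (0.50), Eif4a2 (0.60), Eif1b (0.62), Eif4e3 (0.78), Eif4ebp2 (0.85), Eif4ebp1 (1.04) and Eef2k (1.12). Eif1ad shares near-identical sequence with Banf1, which held up to 94.0% of their joint counts in a library. Eef2kmt shares it with Alg1, which held up to 60.9%, so reads could have been split in both cases.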

How the results depend on the processing

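Counts are of members called. Shares of all genes called under the alternative settings are not given here. DESeq2 called 3 in CHD1 CNS, 2 in CHD1 dLN, 1 in GR and 8 in the genotype by tissue interaction, where edgeR called 0. Without a filter on low counts the count was 3 for Dex in WT cells and 1 for that interaction, and at a mean of at least 10 CPM it was 1 for the interaction. Without TMM scaling it was 10 for tissue in WT cells, 45 for tissue in cKO cells and 1 for the interaction. With 1 library left out at a time the counts ran from 2 to 6 for Dex in WT cells, 41 to 44 in KO cells, 30 to 35 for the Dex interaction, 40 to 44 for KO against WT with Dex, 2 to 5 and 18 to 26 for tissue in WT and cKO cells, 0 to 7 in CHD1 dLN and 0 to 4 for genotype by tissue. Of 2365 alternative values of single genes 8 reversed. At a mean of at least 10 CPM these were Eef1a1 (0.00144) and Eef1b2 (0.0148) with Dex in KO cells. Without TMM scaling they were Eif5 (-0.24), Eif5a (-0.0524) and Eif1 (-0.20) with Dex in KO cells, and Eif4a2 (0.0157), Eif4b (0.13) and Eef1g (0.29) between tissues in cKO cells. The cause was not tested. With replicate number as a block the count was 1 in CHD1 dLN (Eif2s1, lower), 7 and 43 for Dex in WT and KO cells, 33 for the Dex interaction, 2 and 20 for tissue and 0 for CHD1 CNS and genotype by tissue. Same-numbered libraries correlated at -0.0803 to 0.109 in their deviations, so the number was not treated as pairing. No paired analysis was possible for GR and for IL-23R KO against WT because these groups share no numbers.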

Other observations

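Eif4ebp3, the third 4E-binding protein gene, was too low to be tested. It had 1, 1 and 0 counts in the CHD1 WT and 11, 4, 10 and 17 in the CHD1 cKO libraries from the CNS, and 0, 2 and 0 against 3, 6, 1 and 4 in the dLN. These values were picked after they had been seen and have no test.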
